A study of Macaca mulatta with 13 samples.

Results

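The microRNA miR-140 was described through its mature arms, miR-140-5p and miR-140-3p, in small RNA libraries of rhesus monkey (Macaca mulatta) thigh muscle. They were chosen by name, with earlier results of these data known, and are 2 of 909 named miRNAs. The only measured value in the naming rule was the row total, which would decide between several rows of 1 name. It decided nothing, since each arm had 1 row in the deposited count table. The libraries came from biopsies of the vastus lateralis, 5 from control-fed animals (Control) and 8 from animals under caloric restriction (CR). The labels give neither age nor sex nor the degree of restriction, and they do not state that each library came from a different animal, so that p-values measure the spread between these libraries. The series title concerns networks tied to the prevention of sarcopenia, in which muscle is lost with age. The comparison asks whether the arms of miR-140 differed between the diets.

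A miRNA hairpin is cut into a duplex, and usually the strand of 1 arm is loaded into an Argonaute protein while the other is degraded, so that the arms of a hairpin often differ widely in abundance. The MIR140 gene lies within WWP2, which encodes an E3 ubiquitin ligase, in the T2T-MMU8v2.0 annotation. In mouse, miR-140 is abundant in cartilage, where the chondrocyte factor Sox9 drives it, and its loss disturbs skeletal growth. Both arms repress target transcripts, and a known target of the 5p arm in mouse cartilage is Adamts5, a protease that degrades aggrecan. Skeletal muscle holds connective tissue cells between its fibres, and miR-199a and miR-214, with which miR-140 was compared, are miRNAs of fibroblasts and mesenchyme. In the same annotation MIR199A-1 and MIR214 lie within DNM3 and are each other's nearest annotated miRNA genes. MIR199A-2, also a gene of miR-199a, lies apart from them, within DNM2 on chromosome 19.

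Libraries held 1154326 to 5392611 counts in named miRNAs, with 397 to 476 miRNAs detected in each. Levels are CPM, that is, counts scaled to a fixed library size and adjusted between libraries with TMM factors, which ran from 0.624 to 1.76. Control replicate 4, with the factor of 1.76, stood apart from the rest in its markers. Its summed level of 4 skeletal muscle miRNAs (miR-1-3p, miR-133a, miR-133b-3p and miR-206) was 13526 CPM against 39190 to 80935 CPM in the 8 CR libraries and 52284 to 58677 CPM in the other Control libraries. Most of that sum was miR-133a, with a Control mean of 45023 CPM. The Control means of miR-206, miR-133b-3p and miR-1-3p were 1856, 836 and 116 CPM. In Control replicate 4 the summed level of the 4 arms of miR-199a and miR-214 was 2048 CPM, against 486.5 to 1636 CPM in CR and 717.6 to 1421 CPM in the other Control libraries. The main comparisons are also given without this library.

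miR-140 in this muscle was almost wholly the 3p arm. Over all 13 libraries miR-140-3p had 42213 counts and miR-140-5p had 45, or 938 counts of the 3p arm for each count of the 5p arm. The 5p arm made up 0.106% of miR-140 counts over all libraries (95% exact binomial interval 0.0777 to 0.142%). The share was 0.104% (0.0660 to 0.156%) in the summed Control libraries and 0.109% (0.0684 to 0.165%) in the summed CR libraries. Control replicate 4 held 10960 of the 22079 Control counts of the 3p arm, and without it the summed Control share was 0.162% (0.0958 to 0.255%), above that of CR with overlapping intervals. These intervals cover counting error only, since libraries of a group are summed and reads without molecular identifiers can be copies of 1 molecule. Ligation and size selection can also shift counts between the arms, so that a ratio of counts is not a ratio of molecules.

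By library, miR-140-3p had 2408, 3221, 3185, 10960 and 2305 counts in Control replicates 1 to 5. The matching counts of miR-140-5p were 4, 6, 2, 5 and 6. In CR replicates 1 to 8, miR-140-3p had 1661, 5110, 1629, 1845, 2567, 2201, 3890 and 1231 counts. The 5p arm had 4, 5, 0, 4, 5, 1, 3 and 0 counts in the same CR libraries. The 3p arm was thus at 1231 counts or more in every library, while the 5p arm never passed 6 counts and was not seen in CR replicate 3 and CR replicate 8. A count of 0 allows up to 3 counts as a one-sided limit, which is a 5p share of up to 0.184% in CR replicate 3 and 0.244% in CR replicate 8. The two-sided 95% exact binomial intervals of these libraries end higher, at 0.226% and 0.299%. Only 8 of 13 libraries held more than 3 counts of the 5p arm.

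**Figure D1:**
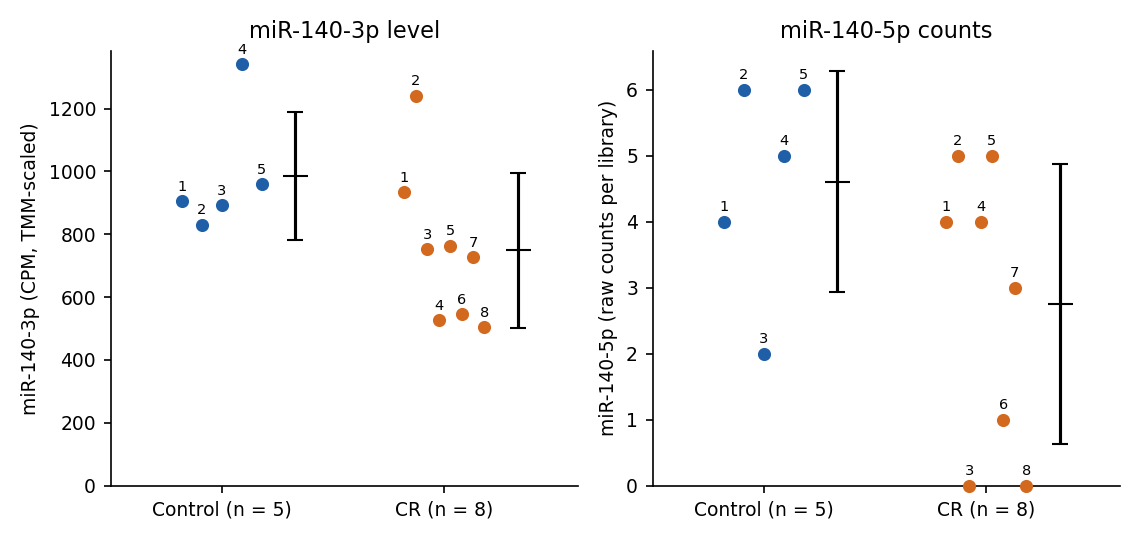
Level of miR-140-3p in CPM (left) and raw counts of miR-140-5p (right) for each library, by diet. Points are libraries labelled with their replicate number, and bars give the mean ± SD. The 3p arm ran from 505 to 1342 CPM with overlapping diets, and the 5p arm from 0 to 6 counts.

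The 5p share within a library ran from 0.0456% (Control replicate 4) to 0.260% (Control replicate 5) in Control. In CR it ran from 0 (CR replicates 3 and 8) to 0.240% (CR replicate 1), with a median of 0.0874%. The diets overlapped over nearly their whole range. The 95% interval of the single library held the overall share of 0.106% in 12 of 13 libraries. The exception was Control replicate 4, the library with the most 3p counts, whose interval of 0.0148 to 0.106% ended just under that share.

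**Figure D2:**
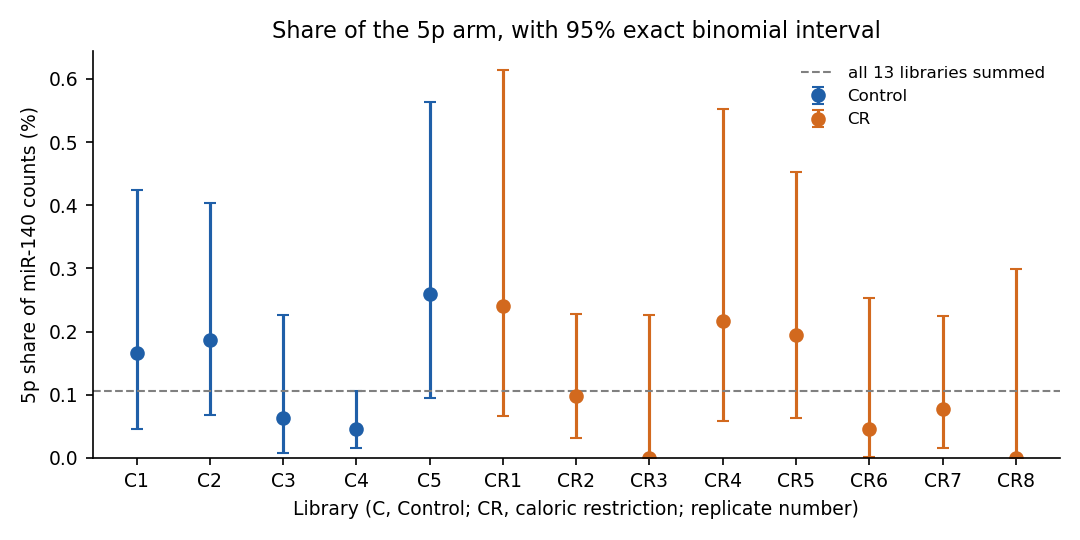
Share of miR-140 counts that belonged to the 5p arm in each library (percent), with the 95% exact binomial interval. The dashed line is the share over all 13 libraries, 0.106%, which lies within the interval of every library other than Control replicate 4.

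The arm ratio, taken as log2 of 3p over 5p counts with 0.5 added to each, was 9.55 ± 1.04 (SD, n = 5) in Control and 9.94 ± 1.19 (SD, n = 8) in CR. The difference of 0.39 (95% interval -1.06 to 1.80, from the exact permutation test) was smaller than the spread between libraries. The two-sided exact permutation test gave p = 0.552, or 0.705 adjusted over the 3 ratios tested, where the smallest p possible is 0.000777. Without Control replicate 4 the difference was 0.74, and without Control replicate 5 it was 0.12. The 5p share itself, which needs no added count, averaged 0.144% ± 0.0893 in Control (SD, n = 5) and 0.109% ± 0.0964 in CR (SD, n = 8; two-sided exact permutation p 0.514). Without Control replicate 4 the Control mean was 0.169% ± 0.0812 (SD, n = 4; exact permutation p 0.317), and without Control replicate 5 it was 0.115% ± 0.0711 (SD, n = 4; exact permutation p 0.911). With 0 to 6 counts of the 5p arm in a library, only a large change in arm use could have been detected at this depth.

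Set beside other miRNAs, the excess of the 3p arm was wide but shared by several. There were 120 miRNAs with both arms named and a joint mean of 10 CPM or more, of which 52 had more 3p and 68 more 5p counts. The mean arm ratio of miR-140, 9.79 on the log2 scale, was the 10th highest. Where the minor arm is near 0 this order depends on the added 0.5, and by share of summed counts 13 of the 52 with more 3p counts had a smaller minor arm than miR-140. By the mean ratio, the nearest above it were miR-222 (9.98), a miRNA of endothelium, and miR-409 (10.3) of the imprinted DLK1-DIO3 locus. The nearest below were miR-107 (9.62), encoded within a pantothenate kinase gene, and miR-29a (9.58), which targets collagen transcripts. The minor arm held a smaller share of counts than that of miR-140 in 35 of the 120, and the median minor share was 1.09%. The fibroblast miRNAs miR-214 and miR-199a used a far more even mix of arms, with mean log2 ratios of 4.49 and 2.56. Their minor 5p arms took 4.24% and 15.2% of their counts. This did not hold for connective tissue miRNAs as a class. Among the extracellular matrix miRNAs of the tissue list given further on, those with more 3p counts ran from 0.304 (miR-29c) to 13.7 (miR-143).

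The arm ratio of miR-140 varied between libraries with an SD of 1.10 on the log2 scale, against 0.248 for miR-214 and 0.206 for miR-199a and a median of 0.763 over the 120. The minor arms of the latter pair had 796 and 5767 counts in all, against 45 for miR-140-5p. In limma fitted over all 120 arm ratios, 0 passed an adjusted p of 0.05 (0%), and 5 had an unadjusted p under 0.05 (4.17%). The diet difference in the arm ratio was 0.39 ± 0.60 (SE) for miR-140 (adjusted p 0.944), 0.18 ± 0.20 for miR-214 and 0.15 ± 0.19 for miR-199a. These 3 values lay within 1 SE of 0.

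**Figure D3:**
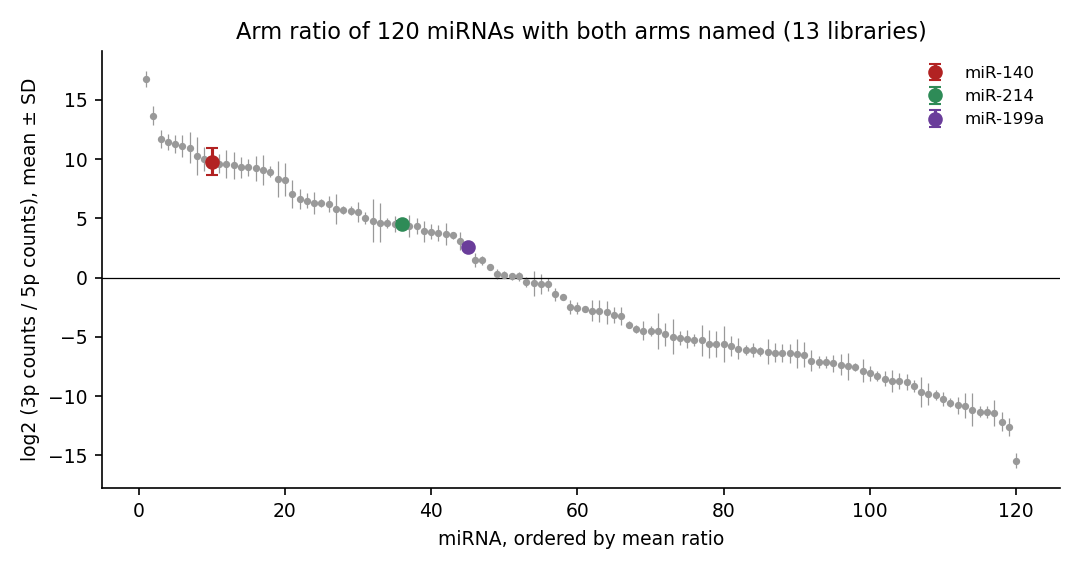
Mean log2 ratio of 3p to 5p counts, ± SD over 13 libraries, for the 120 miRNAs with both arms named, in order of the ratio. miR-140 (red, 9.79) is the 10th from the 3p end, with miR-214 at 4.49 and miR-199a at 2.56.

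The level of miR-140-3p was lower on average in CR than in Control, but the difference did not pass the test across all miRNAs. In Control replicates 1 to 5 it was 905, 830, 892, 1342 and 960 CPM. In CR the lowest value was 505 CPM (CR replicate 8), the median 740 CPM and the highest 1241 CPM (CR replicate 2). Apart from replicate 4, the Control libraries lay close together, whereas CR replicates 4, 6 and 8 stood at 527, 545 and 505 CPM, well under the lowest Control library. The groups overlapped, since CR replicate 1, at 933 CPM, and CR replicate 2 lay within the Control range. In all, 7 of 8 CR libraries were below the Control mean and 6 of 8 below the lowest Control library.

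The means were 986 ± 204 CPM (SD, n = 5) in Control and 749 ± 247 CPM (SD, n = 8) in CR. Over the 263 miRNAs that passed the filter on low counts, the quasi-likelihood test of edgeR, with Benjamini-Hochberg adjustment, called 0 (0%), and 7 (2.66%) had an unadjusted p under 0.05. DESeq2 and limma-voom also called 0. The value of miR-140-3p in that fit was a log2 fold change of -0.40 ± 0.24 (SE), or a fold of 0.76 (95% interval 0.540 to 1.07), with an unadjusted p of 0.109, 19th in order of p, and an adjusted p of 0.985. The median over all 263 was 0.0103. The p of miR-140-3p was known when this miRNA was chosen for description.

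Without Control replicate 4 the Control mean was 897 ± 53.3 CPM (SD, n = 4), and 6 of 8 CR libraries lay below it. The log2 fold change was then -0.26 ± 0.23 (SE), and without CR replicate 2 it was -0.61 ± 0.23 with an unadjusted p of 0.0157 and an edgeR adjusted p of 0.834. Control replicate 4 and CR replicate 2 were the libraries with the most miR-140-3p in their groups, and they also held the most of the summed miR-199a and miR-214 arms, at 2048 and 1636 CPM. None of these 4 arms was at 0 in any library. Likewise the summed leukocyte miRNAs (miR-142-3p, miR-142-5p, miR-223 and miR-150-5p) were highest in these libraries, at 603 CPM in Control replicate 4 (281 to 425 CPM in the other Control libraries) and 693 CPM in CR replicate 2 (192 to 421 CPM in the other CR libraries). Most of that sum was miR-150-5p, with 95.2% of its counts, and miR-142-3p was at 0 in 5 libraries. Other marker sums were not highest in Control replicate 4 or CR replicate 2. Smooth muscle miRNAs (miR-143-3p and miR-145-5p) stood there at 29873 and 22228 CPM, against maxima of 42281 (Control) and 45602 (CR). Endothelial miR-126 stood at 143 and 127 CPM, against 219 and 145 CPM. Red blood cell miRNAs (miR-451 and miR-144) stood at 745 and 363 CPM, against 1386 and 1510 CPM. CR replicates 4, 6 and 8, lowest in miR-140-3p, had the lowest CR sums of the miR-199a and miR-214 arms, at 648, 487 and 766 CPM. Their skeletal muscle sums were the highest in CR, at 56047, 65276 and 80935 CPM. Their TMM factors were the lowest in CR, at 0.728, 0.749 and 0.624. The part of these markers in the diet difference was not tested. With scaling to library totals alone the log2 fold change of miR-140-3p was -0.66, while the median of all miRNAs moved to -0.26. Relative to the median it was thus -0.40, against -0.41 with TMM factors. In bulk tissue, fewer cells of a type and less RNA per cell cannot be told apart.

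**Figure D4:**
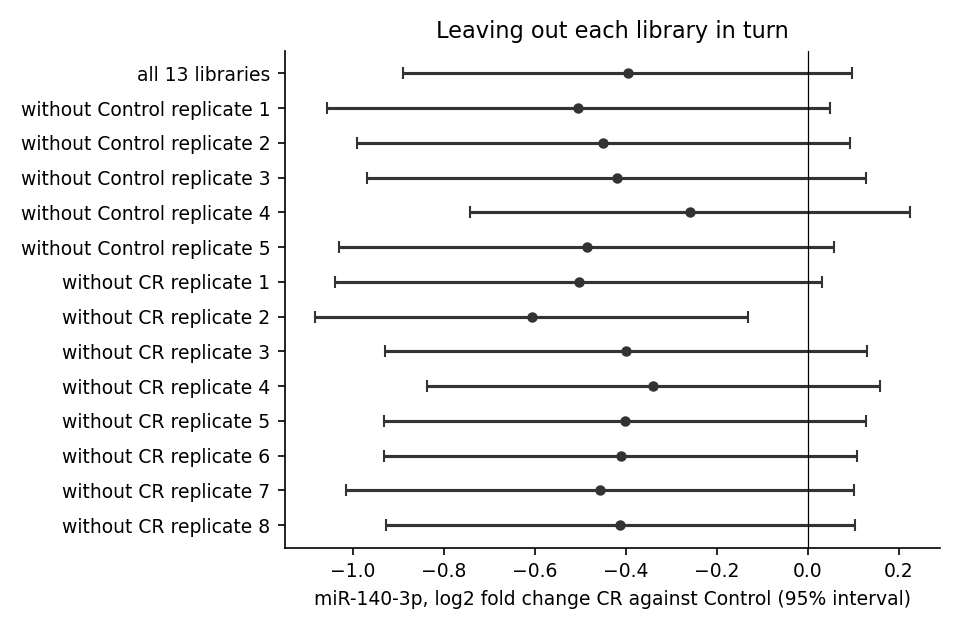
Log2 fold change of miR-140-3p, CR against Control, with its 95% interval from edgeR, for all 13 libraries and with each library left out in turn. All estimates are below 0, lowest at -0.61 (without CR replicate 2) and highest at -0.26 (without Control replicate 4), and the interval excludes 0 only without CR replicate 2.

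By abundance miR-140-3p ranked between 26th (Control replicate 4) and 54th (CR replicate 8) among the 909 miRNAs of a library, with a median rank of 39. It took 0.0315 to 0.236% of a library's miRNA counts. Among the 263 miRNAs tested it was 39th in mean level. The SD of its log2 CPM over the 13 libraries was 0.435, and 67 of them had a smaller one. This SD was not compared with miRNAs of like level, so the order does not show that miR-140-3p was unusually steady. The 3p arms of the fibroblast miRNAs were at a like or lower level, with miR-199a-3p at 700 ± 234 CPM in Control and 586 ± 231 in CR, and miR-214-3p at 390 ± 220 and 297 ± 125 (SD, n = 5 and 8).

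miR-140-5p did not pass the filter on low counts. The mean level was 1.34 ± 0.80 CPM for the 5 Control libraries and 0.862 ± 0.80 CPM for the 8 CR libraries (SD; two-sided exact permutation p 0.304). Fitted with no such filter, over 612 miRNAs, its log2 fold change in edgeR was -0.67 ± 0.69 (SE; 95% interval -2.06 to 0.71), with an adjusted p of 0.844, and leaving out single libraries moved it between -0.88 (without Control replicate 3) and -0.36 (without Control replicate 5), with -0.81 without Control replicate 4. Without Control replicates 4 and 5, each left out alone, the Control mean was 1.53 and 1.06 CPM (exact permutation p 0.198 and 0.655). Both arms had lower fitted values in CR, and neither passed the test.

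Over the 13 libraries as a whole miR-140-3p was higher where the fibroblast miRNAs were higher, but not among the Control libraries other than replicate 4. In Control replicates 1, 2, 3 and 5, miR-140-3p was at 905, 830, 892 and 960 CPM. In the same libraries miR-199a-3p was at 582, 818, 544 and 498 CPM and miR-214-3p at 312, 450, 330 and 131 CPM. Replicate 2 was thus lowest of these for miR-140-3p and highest for both partners, and replicate 5 the reverse. Over 13 libraries, Pearson's r of log2 CPM with miR-199a-3p was 0.829 (permutation p 0.00056, adjusted over 4 relations 0.00126) and Spearman's rho was 0.703 (permutation p 0.00901, adjusted 0.0180). For the 5p arm of miR-199a, r was 0.826 (adjusted permutation p 0.00126) and rho 0.714 (0.0180). For miR-214-5p, r was 0.769 (0.00281) and rho 0.637 (0.0286), and for miR-214-3p, r was 0.659 (0.0132) and rho 0.593 (0.0355; all adjusted permutation p). The 4 relations are not independent, since the arms of a hairpin share their source, MIR199A-1 neighbours MIR214, and all values of a library share its scaling. These partners were chosen with earlier results of the same data known.

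Libraries at the ends carried part of these relations. Without the 2 libraries farthest from the median (Control replicate 4 and CR replicate 6), r was 0.732 for miR-199a-3p (adjusted permutation p 0.0192), 0.708 for the 5p arm of miR-199a (0.0192) and 0.607 for miR-214-5p (0.0467), while the rho values of 0.536, 0.573 and 0.455 no longer passed (adjusted permutation p 0.127, 0.127 and 0.163). For miR-214-3p, without Control replicates 4 and 5, r was 0.839 (adjusted permutation p 0.00692) and rho 0.827 (0.0102). Without Control replicate 4 alone, r was 0.779 for miR-199a-3p, 0.757 for its 5p arm, 0.685 for miR-214-5p and 0.527 for miR-214-3p, of which the last did not pass (adjusted permutation p 0.0781). The rho values without this library were 0.622, 0.636, 0.538 and 0.483 in the same order and none of them passed (adjusted permutation p from 0.0690 to 0.116). The rho values of all 4 partners also missed the threshold without CR replicate 2, 4 or 6 (adjusted permutation p from 0.0506 to 0.114), and that of miR-214-3p without CR replicate 1, 5 or 7 (0.0549, 0.0550 and 0.0588).

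Within the CR libraries alone, r was 0.893 for miR-199a-3p, 0.851 for the 5p arm of miR-199a, 0.854 for miR-214-5p and 0.871 for miR-214-3p (n = 8, adjusted exact permutation p 0.00853 for each). The matching rho values of 0.810, 0.738, 0.619 and 0.786 did not pass (adjusted exact permutation p 0.0559, 0.0611, 0.115 and 0.0559). No correlation is given for the 5 Control libraries, under the 6 taken as a minimum; their values are given above. With the mean of each diet subtracted, r over 13 libraries was 0.832, 0.800, 0.742 and 0.656 in the same order. Relations of miR-140-5p were not computed, since its counts were 0 to 6.

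**Figure D5:**
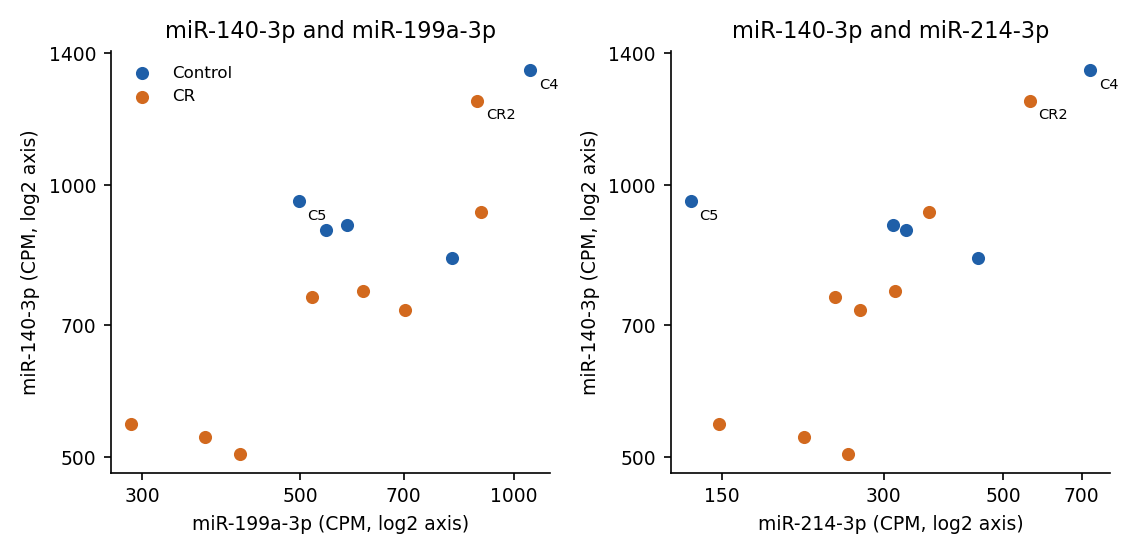
Level of miR-140-3p against miR-199a-3p (left) and miR-214-3p (right) in CPM on log2 axes, 1 point a library, coloured by diet. Control replicate 4 and CR replicate 2 are highest for all 3 miRNAs in their diet apart from miR-199a-3p in CR, and Control replicate 5 lies off the trend for miR-214-3p.

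A ratio within a library needs no scaling between libraries. miR-140-3p had 1.55, 1.01, 1.64, 1.27 and 1.93 counts for each count of miR-199a-3p in Control replicates 1 to 5. In CR this ratio ran from 1.04 to 1.89. The whole range was thus within 1.01 to 1.93, while the level of miR-140-3p itself ran from 505 to 1342 CPM. By diet, the log2 ratio varied less than log2 CPM of miR-140-3p in CR (SD 0.284 against 0.446, n = 8). In Control it varied more (SD 0.358 against 0.271, n = 5). Against miR-214-3p the ratio ran from 1.84 to 7.32 in Control and from 1.96 to 3.68 in CR. The high value belonged to Control replicate 5, where miR-214-3p stood at 131 CPM against 312 to 727 CPM in the other Control libraries.

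On the log2 scale the ratio to miR-199a-3p was 0.53 ± 0.36 (SD, n = 5) in Control and 0.40 ± 0.28 (SD, n = 8) in CR, a difference of -0.14 (95% interval -0.52 to 0.26; exact permutation p 0.450, two-sided, adjusted 0.705). The ratio to miR-214-3p was 1.52 ± 0.81 and 1.37 ± 0.28, a difference of -0.15 (95% interval -0.83 to 0.44; two-sided exact permutation p 0.705, adjusted 0.705). Neither difference exceeded the spread between libraries. Without Control replicate 5 the differences were -0.0332 and 0.19, without Control replicate 2 they were -0.26 and -0.31, and without Control replicate 4 they were -0.18 and -0.31.

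By Pearson's r of log2 CPM over the 13 libraries, among the 177 tested miRNAs whose mean reached 10 CPM, the 5 most like miR-140-3p were miR-152-3p (0.866), miR-199a-3p (0.829), the 5p arm of miR-199a (0.826), miR-195-3p (0.807) and miR-497-5p (0.792). miR-152 belongs to the miR-148/152 family, and miR-195 and miR-497 come from 1 cluster of the miR-15/16 family. miR-214-5p was 6th and miR-214-3p 12th. The same 5 miRNAs led without Control replicate 4, with r from 0.757 to 0.818, and 4 of them with scaling to library totals alone. These values are a description, since the 5 were chosen for them.

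The ratio to miR-152-3p was also the steadiest of the 177, with an SD of log2 ratios of 0.219, against 0.307 for miR-199a-3p, 4th in that order. miR-140-3p had 11.8, 10.1, 12.7, 11.2 and 11.3 counts for each count of miR-152-3p in Control replicates 1 to 5. In CR this ratio ran from 8.31 to 14.1 with a median of 10.5. Control replicate 4, which stood apart in level, lay within the range of the other Control ratios. The log2 fold changes of the 5 like miRNAs, CR against Control, were -0.27 ± 0.25 (miR-152-3p), -0.26 ± 0.29 (miR-199a-3p), -0.45 ± 0.32 (5p arm of miR-199a), -0.0388 ± 0.24 (miR-195-3p) and -0.33 ± 0.32 (miR-497-5p; all SE), against -0.40 for miR-140-3p. With Control replicate 4 left out these were -0.13, -0.0581, -0.13, 0.0270 and -0.24, against -0.26 for miR-140-3p.

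Among 17 listed miRNAs of cartilage, fibroblasts and extracellular matrix, 15 were in the table and 12 were tested, and 0 of them rose or fell past the threshold, as for all 263 (0%). The 4 arms of miR-199a and miR-214 had lower fitted levels in CR, where 127 of all 263 tested miRNAs were lower. The log2 fold changes were -0.45 ± 0.32 (SE) for the 5p arm of miR-199a and -0.26 ± 0.29 for miR-199a-3p. They were -0.49 ± 0.39 for miR-214-5p and -0.40 ± 0.34 for miR-214-3p. Leaving out Control replicate 4 gave -0.13, -0.0581, -0.17 and -0.0434 in the same order. Of the 6 tested matrix and fibrosis miRNAs, 3 were lower and 3 higher. The cartilage miRNA miR-455, encoded within the collagen gene COL27A1, was rare in this muscle. Its 3p arm, miR-455-3p, stood at 6.34 ± 2.66 CPM in the 5 Control and 6.84 ± 2.85 CPM in the 8 CR libraries (SD; log2 fold change 0.0941 ± 0.36, SE). This fold change was 0.35 ± 0.37 without Control replicate 4. miR-455-5p had 28 counts in all. The other tested cartilage miRNA, miR-675-3p, stood at 4.39 ± 2.18 CPM in Control and 3.53 ± 3.42 CPM in CR (SD, n = 5 and 8), with a log2 fold change of -0.35 ± 0.62 (SE), or -0.13 ± 0.68 without Control replicate 4. The median log2 fold change of the 12 was -0.20, against 0.0103 over all miRNAs tested.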

How the data were processed

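The authors deposited 1 table of read counts per miRNA for each library. Its whole numbers and unequal library totals show raw counts that were not normalized. Per the labels' protocols, small fragments were gel-isolated from Trizol-purified RNA and sequenced after TruSeq small RNA library preparation. The genome build is Mmul 8.0.1, per the submitters' processing notes, and no source used here names the aligner or the counting tool. No sequence of miR-140 was used here.

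Of 1703 rows, 702 predicted loci were left out. For 67 names listed more than once the copy with the most counts was used, and 3 pairs of names were merged because their counts were the same to within 1% and their total reached 20. This left 909 miRNAs. The row of miR-199a is its 5p arm. The tests ran in R 4.3.3, with edgeR 4.0.16 for counts (TMM, filterByExpr, robust quasi-likelihood), limma 3.58.1 for voom and arm ratios, and DESeq2 1.42.0. The adjusted p threshold was 0.05, and log2 CPM used a prior count of 2. Permutation tests of correlations used 100000 resamples, or all orders for the 8 CR libraries. The planned arm ratio without an added count could not be formed with 0 counts, so 0.5 was added, and planned relations of miR-140-5p were left out. The minimum of 10 CPM for arm pairs was set after seeing the table. Scripts were tested on simulated data. The members, lists and tests were chosen with earlier results of these data known. miRNAs named by likeness were the 5 with the highest Pearson r, those named by arm ratio the nearest 2 on each side, and from the tissue list miR-455 and the 2 others with the smallest p. miR-675-3p was named after its value was seen. No libraries within a diet agreed within counting noise, and each was counted as 1 sample, as labelled.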

Additional observations from a re-analysis of the deposited data

How the results depend on the processing

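The fitted log2 fold change of miR-140-3p stayed below 0 and was not called under all 22 alternatives, from -0.66 (library totals alone) to -0.25 (replicate number as a block), with edgeR, DESeq2 or limma adjusted p from 0.796 to 1.00. That of miR-140-5p, with no filter on low counts, ran from -0.88 (without Control replicate 3) to -0.26 (replicate block) over 20 alternatives, and the number of miRNAs called was 0 throughout. With the replicate number as a block, the mean arm ratio difference over 5 pairs was -0.0317, of opposite sign to the main 0.39. Libraries with the same number did not deviate together (correlations of deviations from -0.24 to -0.0474), so the number was not taken as a pairing. Over single libraries left out, the diet difference in the arm ratio ran from 0.12 to 0.74, that in the 5p share from -0.0596 to -0.00613 percentage points (chosen after seeing the data), that in the level of miR-140-5p from -0.68 to -0.19 CPM (likewise), that in the ratio to miR-199a-3p from -0.26 to -0.0332, and that in the ratio to miR-214-3p from -0.31 to 0.19. Pearson's r with miR-214-3p ran from 0.53 (without Control replicate 4, no longer called) to 0.89 (without Control replicate 5), and r with the other 3 partners kept its call throughout. With library totals alone r was 0.943, 0.953, 0.921 and 0.875 for miR-199a (5p, then 3p) and miR-214 (5p, then 3p). These values were higher, but the arms did not rank higher in likeness among the 177 miRNAs. They were 5th, 4th, 12th and 22nd with library totals alone, against 3rd, 2nd, 6th and 12th with TMM factors. The cause of these shifts was not tested. Counts of 0 to 6 limit every statement on miR-140-5p.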

Other observations

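At the other end of the order by likeness, the lowest of the 177 correlations with miR-140-3p were those of miR-128a-5p (r = -0.818), the muscle miRNA miR-1-3p (-0.817), miR-365-3p (-0.809) and miR-486-5p (-0.774), the miRNA with the most counts in these libraries. They were named after their values were seen, and are a description over 13 libraries that share their scaling. With library totals alone r was 0.143 for miR-128a-5p, -0.691 for miR-1-3p, -0.330 for miR-365-3p and -0.914 for miR-486-5p, so that the sign for miR-128a-5p turned with the scaling. Without Control replicate 4, where the summed muscle miRNAs were lowest, the values with TMM factors were -0.748, -0.747, -0.750 and -0.687.

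No library was far enough from its group to be set apart in 20 groups of values tested for this, covering the levels and ratios of miR-140 and the 4 arms of miR-199a and miR-214. The closest was miR-140-3p in Control replicate 4, at 10.4 log2 CPM, with the other Control libraries between 9.70 and 9.91, where the gap took 0.697 of the range against a critical value of 0.71. Chance alone sets apart about 1 in 20 such groups. The summed muscle miRNAs, in which Control replicate 4 stood far below the other Control libraries, were not among the groups tested.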
